A study of Mus musculus with 8 samples.

Results

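The genes described are interleukin-10 (Il10), both chains of its receptor (Il10ra and Il10rb), the kinases Jak1 and Tyk2, the transcription factor Stat3 and its target genes Socs3 and Bcl3. They were chosen by symbol, and all 8 were found among the 14971 genes with a symbol in the count table. RNA was sequenced from 2 groups of cells sorted by FACS as macrophages out of colonic lamina propria of 4 male mice. The gate was MHCII+CD64+, with or without GPR35, a G protein-coupled receptor. Each mouse gave 1 GPR35-positive and 1 GPR35-negative library, so there were 4 libraries in each group. The labels name no treatment, strain, age or number of sorted cells.

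IL-10 is a secreted cytokine that restrains inflammatory gene expression in macrophages, and in the gut its loss, or loss of its receptor on macrophages, leads to colitis. It binds IL-10RA, the ligand-binding chain found mainly on blood-derived cells, which pairs with IL-10RB, a chain that other cytokines share and that most cells carry. JAK1, bound to the first chain, and TYK2, bound to the second, then phosphorylate STAT3, which enters the nucleus and switches on targets such as SOCS3, an inhibitor of gp130 cytokine signalling, and BCL3, a nuclear IkB protein that limits NF-kB target genes.

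Libraries held 33.8 to 48.6 M counts in GPR35-positive and 16.0 to 30.1 M in GPR35-negative samples. Gpr35 stood at 73.3 ± 14.9 CPM (read counts scaled to a common library size by TMM) in positive and 2.97 ± 1.46 CPM in negative libraries (SD, n = 4), without overlap. The cell content differed as well. All 20 macrophage identity genes passed as higher in the positive libraries (summed level 45961 to 55043 CPM against 4922 to 23437 CPM). These genes took 4.37% to 4.87% of counts in positive libraries, and in negative libraries 2.55%, 1.20%, 0.565% and 0.777% for mice 1 to 4. None of the 20 was at 0 in any library. B and plasma cell genes were lower in positive libraries for 12 of 13 tested, while Prdm1 was higher (summed level 1393 to 2828 CPM against 73753 to 144273 CPM). Jchain, the joining chain of secreted antibody, alone took 0.0589% to 0.197% of counts in positive and 7.37% to 14.1% in negative libraries. T and innate lymphoid markers (10 of 14 lower, 72.4 to 83.0 CPM against 354.5 to 635.7 CPM) and stromal and endothelial markers (9 of 12 lower, 223.2 to 1123 CPM against 3187 to 7397 CPM) differed in the same direction. With the animal as a block, 6 of the 14 T and innate lymphoid markers were lower and 1 higher, and 11 of the 12 stromal and endothelial markers were lower. Epithelial markers had 3 of 10 lower (5 with the block) and dendritic cell markers 2 of 8 higher (3 with the block). Granulocyte and mast cell markers had 1 higher and 2 lower of 8 (1 and 1 with the block). Over all tested genes 18.5% were higher and 19.5% lower without the block. No marker list had a gene at 0 in all 4 libraries of a group. In such bulk samples, fewer cells of a type and less RNA per cell cannot be told apart, and B cells, plasma cells and T cells can also make IL-10 or carry its receptor. The part of cell content in the results below was not tested; values are given under TMM scaling and again after scaling each library to these macrophage genes (identity scaling).

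Under TMM scaling 7 of the 8 genes were higher in GPR35-positive cells and none was lower, at an edgeR quasi-likelihood adjusted p below 0.05. In order of fold change these were Il10ra, Socs3, Il10, Bcl3, Il10rb, Stat3 and Jak1, while Tyk2 did not pass. The median log2 fold change of the 8 was 1.04, against -0.05 over all 14184 tested genes, of which 2617 (18.5%) were higher and 2769 (19.5%) lower. With library size as the only scaling, 1692 of all genes were higher and 4193 lower. In the 7 genes every positive library stood above every negative library, as it did for 21.5% of all tested genes. Scaled to the macrophage identity genes, 7 of the 8 changed sign, only Il10ra stayed above 0, 5 were past the threshold as lower and none as higher; 86.3% of all genes were then lower, 0.437% higher, and their median was -2.69. Without mouse 3 (replicate 3) the number past the threshold under TMM fell to 4, namely Il10, Il10ra, Socs3 and Bcl3. Over all tested genes that number fell from 5386 to 3284 in the same setting.

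**Figure D1:**
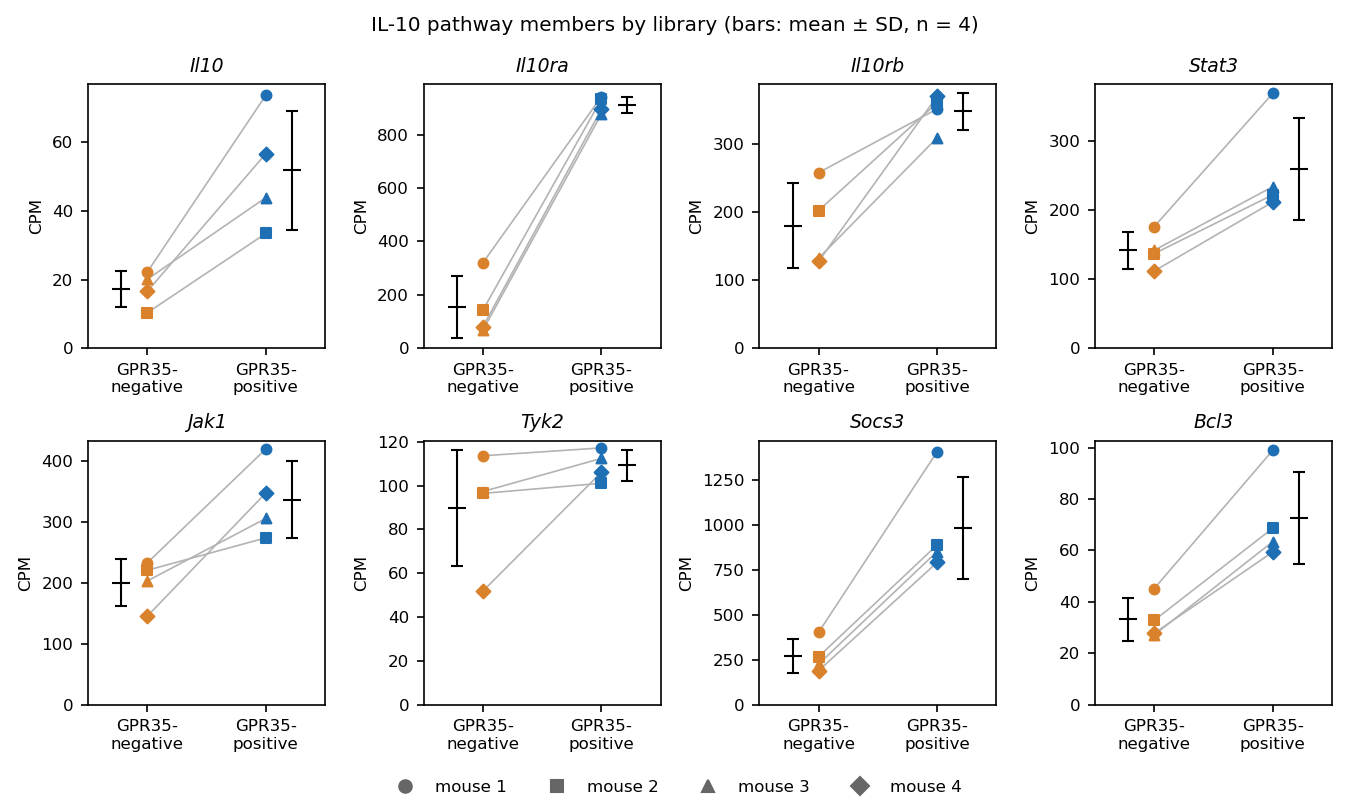
Level of each gene in each library, in CPM on linear axes from 0. Orange symbols are GPR35-negative and blue symbols GPR35-positive libraries, lines join the libraries of a mouse, and black bars give the mean ± SD of 4 libraries. Tyk2 is the one gene whose groups overlap, and mouse 1 stands highest in both groups for every gene but Il10rb.

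Levels of different genes were compared per kilobase of the gene length in the count table. In GPR35-positive libraries Socs3 stood highest, at 362 ± 105 CPM per kilobase, and was followed by Il10ra at 260.9 ± 8.78 and Il10rb at 187.8 ± 14.5 CPM per kilobase. The ranges of these 3 genes did not overlap with one another. Jak1 (63.5 ± 11.9 CPM per kilobase) and Stat3 (57.4 ± 16.3) came next, and their ranges overlapped, as did those of Stat3 and Il10 (39.8 ± 13.3) and of Il10 and Bcl3 (39.6 ± 9.81). Tyk2 was lowest, at 22.4 ± 1.45 CPM per kilobase, below the range of Bcl3. In GPR35-negative libraries the order changed. Socs3 (99.4 ± 34.3 CPM per kilobase) and Il10rb (97.2 ± 33.6) overlapped at the top, and Il10ra, at 43.7 ± 33.3 CPM per kilobase, fell behind Il10rb with overlapping ranges. Jak1 (37.8 ± 7.32 CPM per kilobase), Stat3 (31.4 ± 5.86), Tyk2 (18.4 ± 5.44), Bcl3 (18.1 ± 4.56) and Il10 (13.3 ± 3.97) followed. Among these, Stat3 and Tyk2 were the neighbours without overlap.

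The ligand gene, Il10 (Entrez gene 16153, chromosome 1, 131019845 to 131024970 in GRCm38.p6), was at 73.7, 33.5, 43.9 and 56.7 CPM in the GPR35-positive libraries of mice 1 to 4 and at 22.2, 10.3, 20.1 and 16.6 CPM in their GPR35-negative libraries. The groups did not overlap, and in both groups mouse 1 was highest and mouse 2 lowest. Il10 rose 3.00-fold in positive cells (log2 fold change 1.58 ± 0.30 SE, edgeR adjusted p = 4.10e-03), with log2 differences within mice of 1.73, 1.69, 1.13 and 1.77. With identity scaling Il10 was at -1.05 (adjusted p = 0.0714). It stood at the 92.8th percentile of all fold changes under TMM and at the 91.4th with identity scaling.

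Both receptor chains rose, Il10ra by the larger fold. Il10ra (Entrez gene 16154, chromosome 9, 45253837 to 45269149), the ligand-binding chain, was at 941.4, 932.3, 876.9 and 894.3 CPM in the positive libraries and at 320.1, 142.6, 67.8 and 80.6 CPM in the negative libraries of mice 1 to 4. The positive libraries lay close together and the negative ones were spread, with mouse 1 highest, then mice 2, 4 and 3, the order of their macrophage shares (2.55%, 1.20%, 0.777% and 0.565%). The gene rose 5.96-fold in positive cells (log2 fold change 2.58 ± 0.47, adjusted p = 3.25e-03). The within-mouse log2 differences were 1.56, 2.71, 3.69 and 3.47. Without the negative library of mouse 1 the log2 fold change was 3.24, and without both libraries of mouse 1 it was 3.22. With identity scaling the value was 0.44 (adjusted p = 0.359), the highest of the 8 genes, at the 98.3rd percentile of all genes.

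Il10rb (Entrez gene 16155, chromosome 16, 91406157 to 91425834), the shared chain, was at 351.0, 360.1, 308.8 and 369.5 CPM in positive and at 257.6, 202.0, 132.0 and 127.4 CPM in negative libraries of mice 1 to 4. The groups did not overlap, and mouse 1 differed least between its libraries. Il10rb rose 1.93-fold (log2 fold change 0.95 ± 0.23, adjusted p = 0.0123). This call ended without mouse 2 (adjusted p = 0.0503), mouse 3 (0.0524) or mouse 4 (0.0698). With identity scaling the value was -1.48 (adjusted p = 5.77e-03), at the 86.5th percentile of all genes. Exons of Il10rb overlap those of the predicted gene Gm21970 on the same strand in GENCODE M21, so their reads can be split.

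Within a library, the ratio of Il10ra to Il10rb does not depend on how libraries are scaled. It can still depend on cell content, which was not tested. It was 2.68, 2.59, 2.84 and 2.42 in the positive libraries of mice 1 to 4, against 1.24, 0.706, 0.514 and 0.633 in the negative ones. Every positive library was thus above every negative one, and in the negative libraries of mice 2, 3 and 4 Il10rb stood above Il10ra in CPM. Among the negative libraries the ratio was highest in mouse 1, then mice 2, 4 and 3, the order of their macrophage shares. The log2 ratio was 1.39 ± 0.10 in positive and -0.45 ± 0.54 in negative libraries (SD, n = 4), a difference of 1.85. In a 2-sided exact permutation test p was 0.0286, the lowest that 4 against 4 allows, and 0.0571 after adjustment over the 4 ratios tested. Within mice the exact sign-flip p was 0.125, also the smallest possible.

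**Figure D2:**
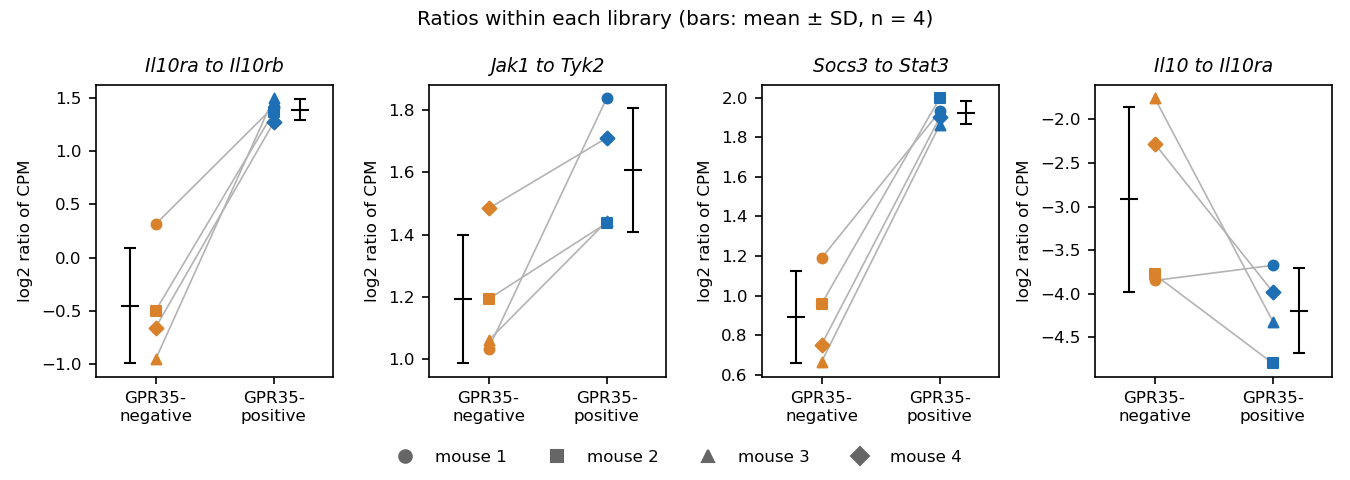
Log2 ratio of the CPM of a pair of genes within each library, for the 4 pairs tested. Orange is GPR35-negative and blue GPR35-positive, lines join the libraries of a mouse, bars give the mean ± SD of 4 libraries, and each panel has its own axis range. Il10ra to Il10rb and Socs3 to Stat3 separate the groups without overlap, while the other ratios overlap.

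Of the kinases, Jak1 rose and Tyk2 did not pass. Jak1 (Entrez gene 16451, chromosome 4, 101151974 to 101265282), which binds IL-10RA and many other cytokine receptors, was at 419.6, 273.8, 305.7 and 347.4 CPM in positive and 232.7, 220.5, 202.9 and 145.0 CPM in negative libraries of mice 1 to 4. The groups did not overlap, though mouse 2 differed little. The log2 fold change was 0.75 ± 0.19 (1.68-fold, adjusted p = 0.0149). The call ended without mouse 3 (adjusted p = 0.0612), without mouse 4 (0.0715) and with library size as the only scaling (0.46, adjusted p = 0.0670).

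Tyk2 (Entrez gene 54721, chromosome 9, 21104068 to 21131393), which binds IL-10RB and type I interferon receptors, was at 117.2, 101.0, 112.4 and 106.1 CPM in positive and 113.6, 96.4, 97.3 and 51.8 CPM in negative libraries. The groups overlapped, and the negative library of mouse 4 was the low one. The log2 fold change was 0.28 ± 0.22 (adjusted p = 0.332), which does not show that the levels were alike. Its within-mouse log2 differences were 0.0449, 0.0676, 0.21 and 1.03. The ratio of Jak1 to Tyk2 was 3.58, 2.71, 2.72 and 3.27 in positive and 2.05, 2.29, 2.09 and 2.80 in negative libraries, higher in the positive library of each mouse but with overlapping groups (difference of log2 ratios 0.42, 2-sided exact permutation p = 0.0857, adjusted 0.0857). For this ratio the exact sign-flip p within mice was 0.125. With identity scaling Jak1 was at -1.82 (adjusted p = 1.76e-03) and Tyk2 at -2.26 (adjusted p = 2.67e-04), the lowest of the 8 genes. These values stood at the 80.4th and 67.4th percentiles of all genes, whose median was -2.69.

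Stat3 (Entrez gene 20848, chromosome 11, 100886806 to 100939594), the transcription factor of the pathway, was at 369.4, 222.4, 234.2 and 212.0 CPM in positive and 176.3, 137.2, 142.1 and 112.0 CPM in negative libraries of mice 1 to 4. Mouse 1 stood apart among the positive libraries and the groups did not overlap. The log2 fold change was 0.87 ± 0.22 (1.83-fold, adjusted p = 0.0131). Without mouse 3 the adjusted p was 0.0565. With identity scaling the value was -1.70 (adjusted p = 3.00e-03), at the 82.9th percentile of all genes. The libraries do not mark strand. In GENCODE M21 exons of Stat3 overlap those of Stat5a and exons of Jak1 those of Raver2. Exons of Tyk2 overlap those of the antisense gene 1700084C06Rik, and exons of Bcl3 those of the antisense gene Gm16175. Reads from such stretches could come from either partner. How they were counted is not known, as the gene models used for counting are not given.

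**Figure D3:**
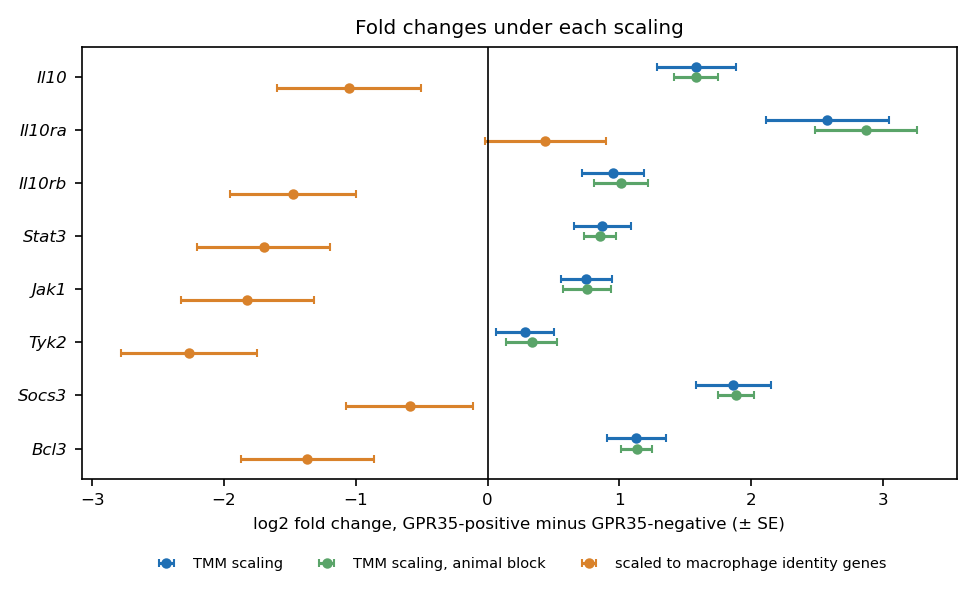
Log2 fold change, GPR35-positive minus GPR35-negative, ± SE for each gene under TMM scaling without and with the animal as a block, and with libraries scaled to the macrophage identity genes. Under TMM all 8 values lie above 0, from 0.28 for Tyk2 to 2.58 for Il10ra, and with identity scaling only Il10ra, at 0.44, does.

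Both STAT3 targets rose. Socs3 (Entrez gene 12702, chromosome 11, 117966079 to 117970336) was at 1409, 889.8, 853.0 and 792.2 CPM in positive and 402.4, 266.6, 225.4 and 188.7 CPM in negative libraries of mice 1 to 4. The mice kept the same order in both groups, with mouse 1 well above the others, and the groups did not overlap. Socs3 rose 3.64-fold (log2 fold change 1.86 ± 0.28, adjusted p = 1.46e-03), and its call held without each mouse or library in turn (adjusted p at most 0.0142). With identity scaling it was at -0.59 (adjusted p = 0.243), at the 94.5th percentile of all genes. The ratio of Socs3 to Stat3 was 3.81, 4.0, 3.64 and 3.74 in positive and 2.28, 1.94, 1.59 and 1.68 in negative libraries. The positive libraries, mouse 1 included, lay within a narrow range above all the negative ones. Among the negative libraries this ratio too followed the order of the macrophage shares, from mouse 1 to mice 2, 4 and 3. The part of cell content in it was not tested. The difference of log2 ratios was 1.03 (2-sided exact permutation p = 0.0286, the smallest possible, adjusted 0.0571; exact sign-flip p within mice 0.125).

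Bcl3 (Entrez gene 12051, chromosome 7, 19808462 to 19822824) was at 99.0, 68.7, 63.4 and 59.4 CPM in positive and 45.2, 32.8, 27.1 and 27.8 CPM in negative libraries. Mouse 1 was again highest in both groups, without overlap between them. Bcl3 rose 2.19-fold (log2 fold change 1.13 ± 0.22, adjusted p = 4.81e-03). The within-mouse log2 differences of 1.13, 1.06, 1.22 and 1.10 varied little. With identity scaling it was at -1.37 (adjusted p = 0.0135), at the 88.0th percentile of all genes.

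STAT proteins bind the palindrome TTCNNNGAA, which reads the same on both strands. It was sought in RefSeq promoter windows of GRCm38.p6 (250 bases before to 50 after the start that each window uses), which held 5 of the 8 genes: Stat3, Jak1, Tyk2, Socs3 and Bcl3. Of these, Socs3 alone had a match, against 8.30% of all 32851 windows. The starts used lie inside the outer gene bounds given above: the Socs3 start used was 117969366, 970 bases inside its bound, and the Bcl3 start 19822755, 69 bases inside. The Socs3 match, in capitals, is shown with 10 bases on each side because it is the one match among these genes. These 29 bases lie at chr11:117969502-117969530 on the minus strand, with the first base of the match 154 bases before the start used, within the outer Socs3 bounds and in no Socs3 exon of GENCODE M21.
Socs3: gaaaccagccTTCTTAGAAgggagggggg
A match is a description of the letters only, and its absence in Bcl3 concerns this window alone. Among 17 genes of the induced list described below that had a window, 3 held the motif (Fcgr1, Sbno2 and Zfp36; 17.6%), against 9.55% of all genes with a window.

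The ratio of Il10 to Il10ra set the ligand against its receptor. It was 0.0784, 0.036, 0.0502 and 0.0635 in positive and 0.0695, 0.0729, 0.297 and 0.206 in negative libraries of mice 1 to 4. The negative libraries of mice 3 and 4, those with the lowest macrophage shares, stood above all others. The groups overlapped, and the ratio was higher in the positive library of 1 mouse (difference of log2 ratios -1.28, 2-sided exact permutation p = 0.0857, adjusted 0.0857). The exact sign-flip p within mice was 0.25.

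**Figure D4:**
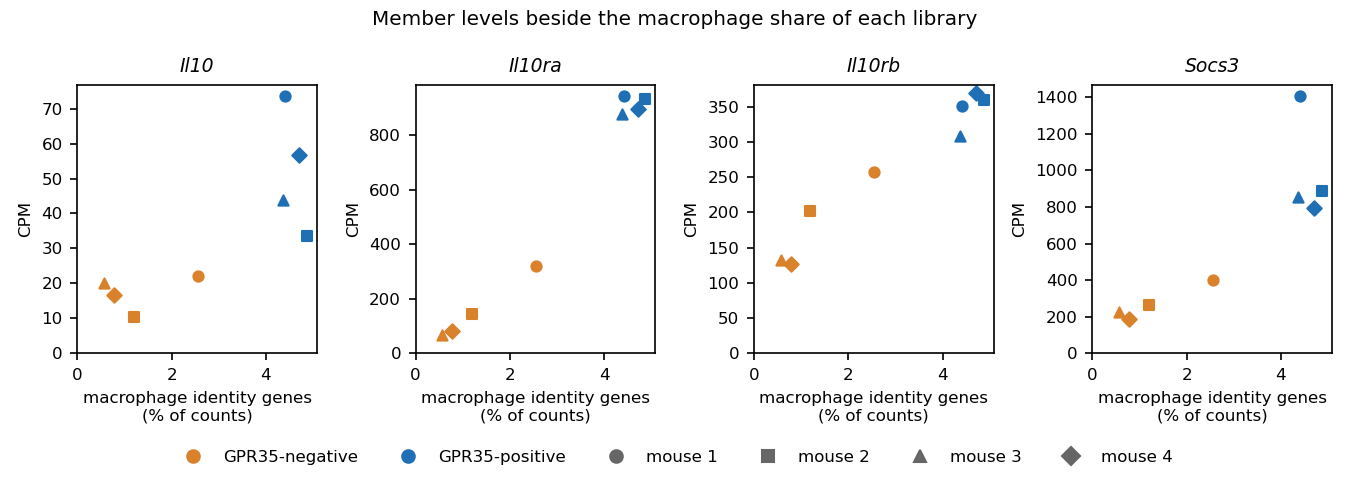
Level in CPM of Il10, Il10ra, Il10rb and Socs3 against the percentage of counts from the 20 macrophage identity genes, 1 symbol per library. The GPR35-positive libraries (blue) sit between 4.37% and 4.87% and the GPR35-negative libraries (orange) between 0.565% and 2.55%. Among the negative libraries each of these genes is highest in mouse 1, at 2.55%. Only Il10ra keeps the order of the shares throughout. Il10 is lowest in mouse 2, at 1.20%, and Il10rb and Socs3 are higher in mouse 3 (0.565%) than in mouse 4 (0.777%).

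Of 19 tested genes known to be induced by IL-10 through STAT3 in macrophages, 15 were higher and none lower in GPR35-positive cells under TMM scaling (median log2 fold change 1.34), against 18.5% higher and 19.5% lower over all genes (median -0.05). They included Il1rn, the interleukin-1 receptor antagonist (317 ± 159 against 21.5 ± 8.66 CPM; log2 fold change 3.88 ± 0.45, adjusted p = 4.14e-04), and Tnip3, an inhibitor of NF-kB signalling (2.97 ± 0.26). Nfil3, a transcriptional repressor, was at 1.99 ± 0.33, and Sbno2, a corepressor, at 1.64 ± 0.27. The 4 that did not pass were Cebpd (-0.47), Cd163 (-1.50), Pim1 (0.27) and Ddit4 (-0.33), named after their values were seen. Without mouse 4 the count was 9, while that of all genes past the threshold fell from 5386 to 3304. With identity scaling, where 0.437% of all genes were higher and 86.3% lower, 1 was higher and 10 lower, with a median of -1.06; Il1rn was the one higher (1.47, adjusted p = 8.51e-03). Fcgr1 of this list encodes CD64, on which the cells were sorted, and is also a macrophage identity gene.

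Of 19 tested genes that IL-10 represses in activated macrophages, 13 were higher and 1, Il12a, lower (named after its values were seen), with a median log2 fold change of 2.02, against 18.5% higher and 19.5% lower over all genes. Il1a and Il1b, which encode interleukin-1 alpha and beta, were at 4.14 ± 0.25 and 4.48 ± 0.52, the costimulatory receptor gene Cd40 at 2.02 ± 0.30 and Ptgs2, cyclooxygenase-2, at 3.02 ± 0.53. The count of genes past the threshold, 14 in all, was 8 without mouse 2, 9 without mouse 3 and 7 without mouse 4. Over all tested genes that count, 5386 with all libraries, was 4339, 3284 and 3304 in the same 3 settings. With identity scaling 3 were higher and 6 lower (0.437% and 86.3% of all genes), with a median of -0.29, and Il1a (1.70) and Il1b (2.30) stayed past the threshold.

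Other JAKs and STATs had 4 of 8 higher and none lower (median 0.70; all genes 18.5% and 19.5%), and 6 of 8 higher with the replicate block, where 19.4% of all genes were higher. Those higher were Stat6, the interleukin-4 pathway factor (1.13 ± 0.22), Stat2, of type I interferon signalling (1.0 ± 0.24), Stat5a (0.89 ± 0.17) and Jak2 (0.84 ± 0.18). With identity scaling all 8 were lower, as were 86.3% of all genes. Inhibitors of JAK-STAT signalling had 4 higher and 1 lower of 15 (median 0.16), against 18.5% and 19.5% of all genes. Socs6 (1.78 ± 0.19) and the phosphatase genes Ptpn6, encoding SHP-1 (1.22 ± 0.14), and Ptpn1 (1.38 ± 0.25) were higher. Socs2, a growth hormone and STAT5 feedback inhibitor, fell by 2.15 ± 0.23 on the log2 scale, to 14.1 ± 0.86 CPM in positive from 62.9 ± 18.0 CPM in negative libraries. With identity scaling none of the inhibitors was higher and 14 were lower, against 86.3% lower over all genes.

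A list of other IL-10 family ligands and receptors also held the related interferon receptor chains. Of its 8 tested genes, 4 were higher and 2 lower (median 1.44), against 18.5% and 19.5% of all genes. The 4 were the interferon receptor chains Ifnar1 (1.62 ± 0.20), Ifngr2 (1.70 ± 0.22), Ifngr1 (1.46 ± 0.21) and Ifnar2 (0.79 ± 0.16), relatives of the IL-10 receptor chains. The 2 were Il22 and Il20rb, named after their values were seen, each below 1 CPM in every positive library; both lost the call with the replicate block (adjusted p = 0.0603 and 0.0564). With identity scaling none was higher and 3 were lower (86.3% of all genes).

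Cytokines and receptors of the gp130 group, with a few outside it such as Il21r, also signal through STAT3. They had 5 higher and 1 lower of 13 tested (median 0.56), against 18.5% and 19.5% of all genes. Osm, encoding oncostatin M (2.89 ± 0.52), Csf3r, the G-CSF receptor (2.39 ± 0.59), Il6ra (1.85 ± 0.40) and Ebi3, a subunit of interleukin-27 (1.27 ± 0.30), were higher. So was Il21r (1.26 ± 0.35), which is also in the induced list. Csf3r is also in the granulocyte and mast cell list. Osmr, the oncostatin M receptor, was lower (-2.97 ± 0.79). Il21r and Osmr were named after their values were seen. Il6 itself was at 2.91 ± 2.07 against 2.97 ± 1.55 CPM (log2 fold change -0.0278 ± 0.68), and Il6st, the gp130 chain, at -0.25 ± 0.36; neither passed. Without mouse 4 the number past the threshold was 2, while that of all genes fell from 5386 to 3304. With identity scaling none was higher and 9 were lower (86.3% of all genes).

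Transcription factors that act on the Il10 gene had 6 higher and 2 lower of 14 (median 0.69), against 18.5% and 19.5% of all genes. Ahr, the aryl hydrocarbon receptor (1.97 ± 0.32), Nfil3 and Nfkb1 (0.87 ± 0.16) were higher. Irf4, which plasma cells express strongly and which is also in the B and plasma cell list, fell by 2.57 ± 0.23 on the log2 scale. Maf, a main activator of Il10 in macrophages, was at 39.4 ± 2.03 against 23.5 ± 16.9 CPM and did not pass (0.75 ± 0.44, adjusted p = 0.207). Without mouse 4 the number past the threshold was 5, while that of all genes fell from 5386 to 3304. With identity scaling none was higher and 11 were lower (86.3% of all genes).

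**Figure D5:**
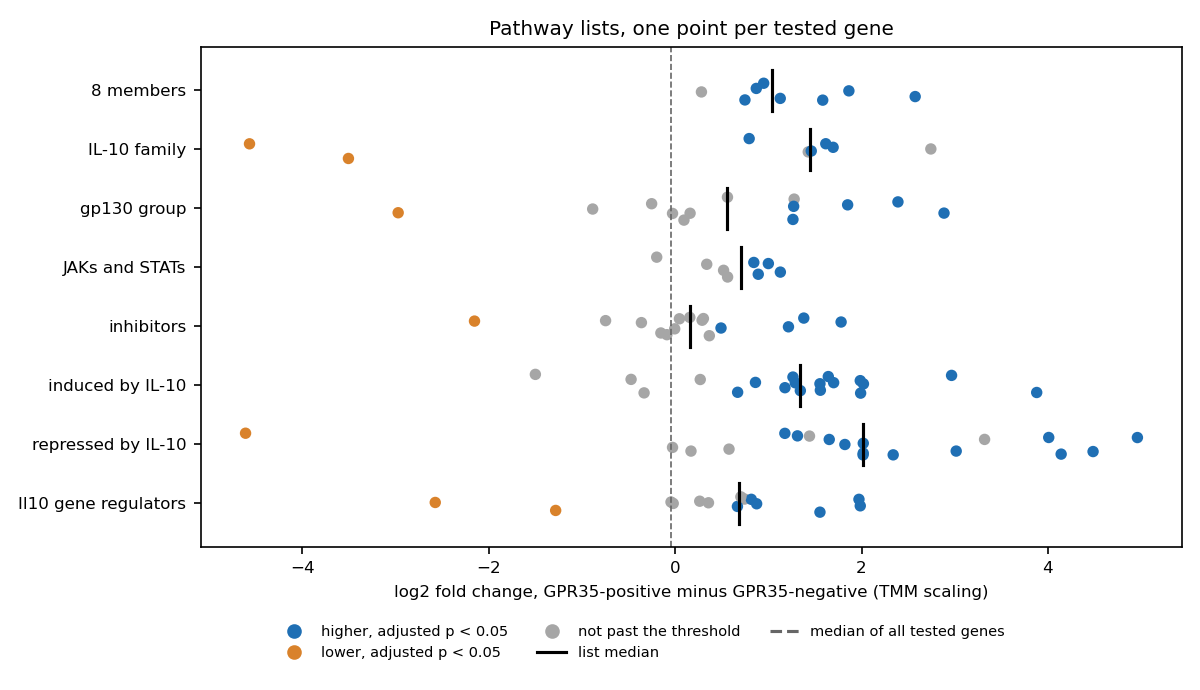
Log2 fold change under TMM scaling of every tested gene of the 8 members and of the 7 pathway lists, 1 point per gene. Blue and orange points passed as higher and lower at an adjusted p below 0.05, grey points did not, black bars are list medians and the dashed line is the median of all genes, -0.05; the medians of the induced and repressed lists are 1.34 and 2.02.

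The genes whose log2 CPM followed that of Il10 most closely over the 8 libraries were Trim35 (Pearson's r = 0.998), Epb41l2 (0.984), Cflar, a caspase-8 inhibitor (0.982), and Mtm1 (0.980), among 9406 genes compared. For Il10ra they were Ctsa, a lysosomal carboxypeptidase (0.999), Lst1 (0.999), Nfam1 (0.998) and 1700071M16Rik (0.998). These are descriptions over libraries that share the group difference and the macrophage content. An r of at least 0.9 was reached by 5.68% of genes for Il10 and by 15.8% for Il10ra.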

How the data were processed

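RNA of 8 samples of colonic cells sorted as macrophages was measured. Per the labels' protocols, SMART-Seq v4 amplified the cDNA and Nextera XT made the libraries, a chemistry that marks no strand and uses no molecular identifiers. The authors deposited raw counts by gene (whole numbers, totals differing between libraries) and, per the file headers, a gene length in bases, used here only for levels per kilobase. The submitters' processing notes name STAR 2.5.2a, R 3.4.2 and mm10; for the counting tool and its gene models, none is given in the sources used here. Rows without a symbol (9 of 14980, 0.0179% of counts) were left out.

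Counts were tested with edgeR 4.0.16 (R 4.3.3): filterByExpr (minimum count 10, minimum total 15; 14184 genes left, all 8 members among them), TMM, robust quasi-likelihood F-test without a block, Benjamini-Hochberg over all tested genes, threshold 0.05. The SE was taken as |log2 fold change| divided by the root of F. Values in CPM use TMM library sizes; ratios use log2 CPM with a prior count of 2 and 2-sided exact permutation tests in Python 3.11.15 (70 arrangements; 16 for sign flips within mice). The identity scaling divided each library by the geometric mean of 20 macrophage genes. The rule for named genes took the members, Gpr35, Jchain, up to 4 genes of smallest p per list and the 4 most correlated with Il10 and with Il10ra; Prdm1, Il6, Il6st and Maf were named outside it, after their values were seen. The members and lists were chosen with earlier results of these data known.

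Both libraries of a number come from 1 animal per the labels, so the numbers pair them. With the mean of each group taken off, Pearson's r between both libraries of a mouse was 0.206, 0.206, 0.431 and 0.0637 for mice 1 to 4. The highest value with another animal was 0.104 for mice 1 and 2 and 0.237 for mice 3 and 4. Mice 1, 2 and 3 thus matched best within the animal, while mouse 4 did not, and its pairing rests on the labels. No replicates agreed within sampling noise (smallest chi-square per degree of freedom 26.1). The test was checked on simulated counts that held no animal effect and no difference in cell content between groups, so the check does not cover these. Alternatives were RLE and library-size scaling, identity scaling with and without the block, the replicate block, no filter, a filter of 5 CPM in 4 libraries, DESeq2 1.42.0, limma 3.58.1 voom with quality weights, no robust estimation, a prior count of 0.5, and leaving out each animal or library. Coordinates are from RefSeq GRCm38.p6 and exon overlaps from GENCODE M21.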

Additional observations from a re-analysis of the deposited data

Results flagged for a closer look

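Dixon's test on the 4 libraries of a group, at a level of 1 in 20, singled out 4 of 98 groups of values. Some such groups can arise by chance. The groups share the same libraries and are not independent, so their number cannot be judged against that level. All 4 lay in libraries of mouse 1. Stat3 was at 369.4 CPM in the GPR35-positive library of mouse 1, against 212.0 to 234.2 CPM in the other 3. Socs3 was at 1409 CPM in the same library, against 792.2 to 889.8 CPM. Sbno2, of the list induced by IL-10, was at 215.4 CPM there, against 125.8 to 136.7 CPM. Stat2 was at 64.6 CPM in the GPR35-negative library of mouse 1, against 34.8 to 39.7 CPM. Without the positive library of mouse 1, Stat3 was at 0.66 (edgeR adjusted p = 0.0235) and Socs3 at 1.65 (adjusted p = 3.91e-03).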

How the results depend on the processing

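Under RLE scaling, no filter, the 5 CPM filter, DESeq2, limma voom and no robust estimation, as with the replicate block, each member kept its direction and its side of the threshold; the block changed no member's call. Scaled to the macrophage identity genes, and then with the replicate block added, Il10 was at -1.05 and -0.84, Il10rb at -1.48 and -1.41, Stat3 at -1.70 and -1.59, Jak1 at -1.82 and -1.68, Tyk2 at -2.26 and -2.08, Socs3 at -0.59 and -0.54, Bcl3 at -1.37 and -1.30, and Il10ra at 0.44 and 0.44 (adjusted p = 0.359 and 0.433). The number of all genes past the threshold, 5386 under TMM, was then 12302 (62 higher, 12240 lower) and 11661; the median of all genes moved from -0.05 to -2.69 and -2.43, and to -0.34 with library size alone (1692 higher, 4193 lower). Library size alone left Jak1 at 0.46 (adjusted p = 0.0670) and Tyk2 at -0.0013. The pairing of libraries gave sign-flip values of 1.85 (exact p = 0.125) for Il10ra to Il10rb and 1.03 (exact p = 0.125) for Socs3 to Stat3, where 16 arrangements cannot go lower. Leaving out each animal or library in turn gave ranges of 2.33 to 3.24 for Il10ra (3.24 without the negative library of mouse 1), 0.79 to 1.18 for Il10rb, 0.66 to 1.0 for Stat3 and 0.61 to 0.93 for Jak1. The number of members past the threshold ranged from 4 to 7, of all genes from 3284 to 5966 (3284 without mouse 3, 3304 without mouse 4) and of the 92 tested pathway genes that are no members from 33, without mouse 4, to 61 (55 with all libraries). The ratio differences ranged from 1.64 to 2.10 for Il10ra to Il10rb, 0.96 to 1.13 for Socs3 to Stat3, -1.76 (without mouse 1) to -0.85 (without mouse 3) for Il10 to Il10ra and 0.28 to 0.51 for Jak1 to Tyk2, the last at an exact permutation p of 0.0286 without the negative library of mouse 4; with 3 animals a permutation p cannot go below 0.1. Every member had at least 174 counts in each library, while some genes of the pathway lists, Il22 and Il23r among them, were at 0 in some library.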
